A study of Homo sapiens with 4 samples.

Results

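Heat shock proteins and chaperones were described in a list of RNA regions recovered with HuR in the breast cancer line MDA-MB-231, human cells that lack the estrogen and progesterone receptors and HER2. The set held every peak whose host gene, taken from the RefSeq transcript named in the peak's annotation, had the symbol of an Hsp70, Hsp110, Hsp90, small heat shock, mitochondrial chaperonin, DNAJ, CCT, PDIA, calreticulin or BAG family gene. It comprised 79 of the 14149 peaks of the list, on 14 genes. RefSeq holds 96 protein-coding genes that match these names, and the other 82 had no peak under this rule.

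RNA immunoprecipitation sequencing (RIP-seq) was done with a mouse anti-HuR antibody in 2 samples and with control mouse IgG in 2 samples, to find the transcripts that HuR binds. All 4 samples were MDA-MB-231 cells with no treatment named in the labels. One list of peaks covered all of them and did not separate the samples, so neither the difference between HuR and IgG at a peak nor the spread between replicates could be measured, and no p-value is given. Of 10 genes looked up for the identity of these cells, CD44 and AXL had peaks, and VIM, EGFR and KRT18 had none. The receptor genes ESR1, PGR and ERBB2 and the epithelial genes CDH1 and EPCAM had none either. A peak is not a measure of expression, so the labelled cell type could not be checked in this way.

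Chaperones bind unfolded or partly folded proteins and keep them from aggregating. Hsp70 proteins work in cycles of ATP hydrolysis, in which DNAJ proteins (also called Hsp40) bring clients and stimulate the ATPase, and BAG and Hsp110 proteins exchange the nucleotide. In the endoplasmic reticulum, protein disulfide isomerases of the PDIA family form and rearrange disulfide bonds. HuR, the product of ELAVL1, is an RNA-binding protein that recognizes AU-rich and U-rich stretches, best known from 3′-UTRs, and is linked to the stability and translation of the transcripts it binds.

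Stretches of 30 bases that held the pentamer ATTTA, the core of the classical AU-rich element, are printed here for 9 of the 14 genes, as examples of the AU-rich sequence that some of these peaks held. They were chosen for holding ATTTA, which 39 of 78 peak windows did. Each was read from hg38 on the strand of the gene, 5′ to 3′, with T for U, and ATTTA is in capitals (overlapping copies run together). In each of these genes the stretch with most copies was taken, and on ties the one in the highest-scoring peak.
DNAJA2: tttaaATTTAaatcccacattgtaaagttt
DNAJC15: tctgaggagtttgtATTTAattatagtctt
DNAJB4: tcattaaagacaaagatcatccaaaATTTA
HSPA13: cATTTAaggtaagtgattaatctaaaatct
PDIA4: tatgtattattgttggATTTAaatcccata
DNAJC10: ttttggtacattttgatATTTATTTAaatt
DNAJC13: tttttctgtaATTTAtacttATTTAaatct
DNAJC3: ttattaATTTAaaATTTActttgctatttt
HSPA4L: tgaaaATTTAgaaagttaatgtggaATTTA

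The DNAJA2 stretch (chr16:46956672-46956701, minus strand) and the DNAJC15 stretch (chr13:43107904-43107933, plus strand) lay in 3′-UTRs. That of DNAJB4 (chr1:78013540-78013569, plus strand) lay in a coding exon, and that of HSPA13 (chr21:14381181-14381210, minus strand) ran from a coding exon into the intron. The remaining 5 were intronic, on PDIA4 (chr7:149019240-149019269, minus strand), DNAJC10 (chr2:182718329-182718358, plus strand), DNAJC13 (chr3:132478259-132478288, plus strand), DNAJC3 (chr13:95786077-95786106, plus strand) and HSPA4L (chr4:127832591-127832620, plus strand). The peaks that held these printed stretches ranged in score from 24.7 at DNAJC15 to 874.9 at DNAJA2. Stretches of DNAJC16, DNAJB14 and DNAJC6, in peaks of 37.0, 21.3 and 14.2, were among those not printed.

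DNAJ, the largest group of the set, held most of the chaperone genes that were present in the list. The Hsp90, CCT, small heat shock, mitochondrial chaperonin and calreticulin genes were absent from it. The 14 listed genes were 14.6% of the 96 (Wilson 95% interval 8.89 to 23.0), against 15.4% of all protein-coding genes (3083 of 20052), so the share was near the background. DNAJ genes made up 9 of the 14, with 54 of the 79 peaks, but they are also 45 of the 96 genes in RefSeq. Of these 45, 9 had a peak and 36 had none, beside 3083 of 20052 protein-coding genes with a peak. The 51 genes of the other families contributed 5 genes and 25 peaks.

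**Figure D1:**
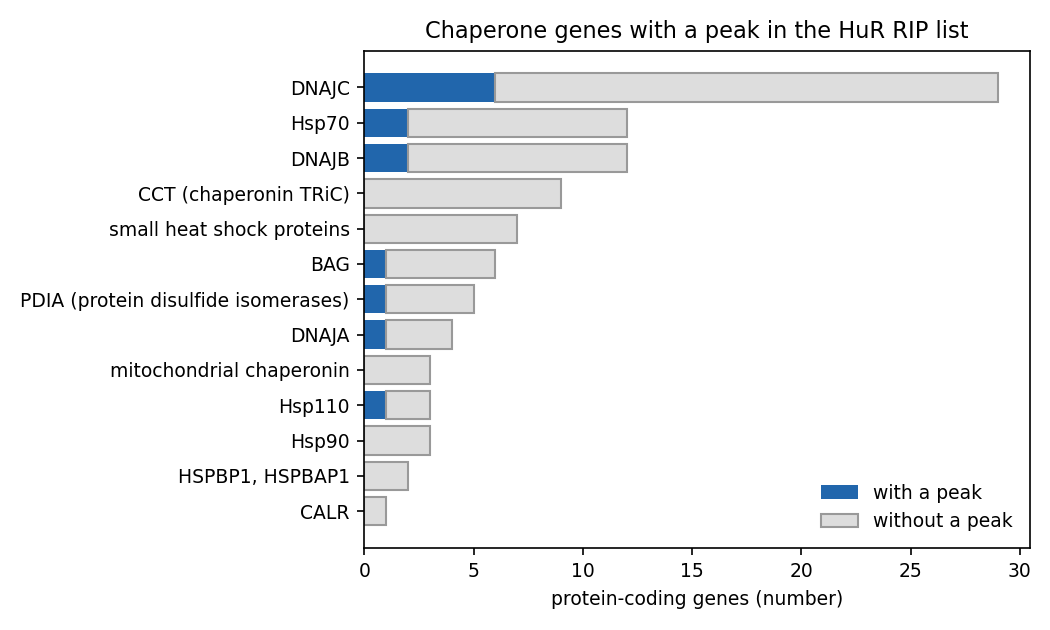
Number of genes in each chaperone family (horizontal axis), divided into genes with and without a peak in the list. DNAJC holds 6 genes with a peak of 29, and the Hsp90, CCT, small heat shock, mitochondrial chaperonin and calreticulin families hold none. Of all protein-coding genes, 15.4% had a peak.

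Many of the best-known chaperones had no peak of their own. Only 15.4% of all protein-coding genes had a peak, so most genes of any kind had none, and the families named here are small. None of the 3 Hsp90 genes (HSP90AA1, HSP90AB1 and HSP90B1) was listed, nor any of the 7 small heat shock protein genes, the 9 CCT genes, most of which encode subunits of the cytosolic chaperonin, or the mitochondrial chaperonin genes HSPD1 and HSPE1. Of 12 Hsp70 genes, HSPA13 and HSPA1B were listed, and the constitutive HSPA8, the endoplasmic reticulum form HSPA5 (BiP) and the mitochondrial HSPA9 were not. Of 3 Hsp110 genes only HSPA4L had a peak, of 5 PDIA genes only PDIA4, and of 6 BAG genes only BAG4. The lectin chaperone gene CALR had none, and CANX, the gene of calnexin, was left out of the set and is not described.

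The peak score is the peak caller's own value for each peak. The sources do not give its scale, and it is not a ratio to IgG. The 79 chaperone peaks had a median score of 57.0, with quartiles of 21.55 and 509.25 and a range of 9.79 to 1279.6. The whole list had a median of 34.0, quartiles of 17.6 and 83.4 and a range of 8.32 to 25897.6. A score at or above the list median was found for 48 of the 79 peaks, or 60.8% (49.7 to 70.8), against 50.1% of the list.

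A pair of genes carried this spread. PDIA4 and DNAJA2 together held 25 of the 79 peaks and 83.8% of the summed score of the set, with a median of 661.7. The other 54 peaks, on 12 genes, had a median of 25.6 and reached at most 220.2, and 23 of the 25 peaks of PDIA4 and DNAJA2 lay above all of them. The high upper quartile of the set therefore described these 2 transcripts and not chaperones in general.

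**Figure D2:**
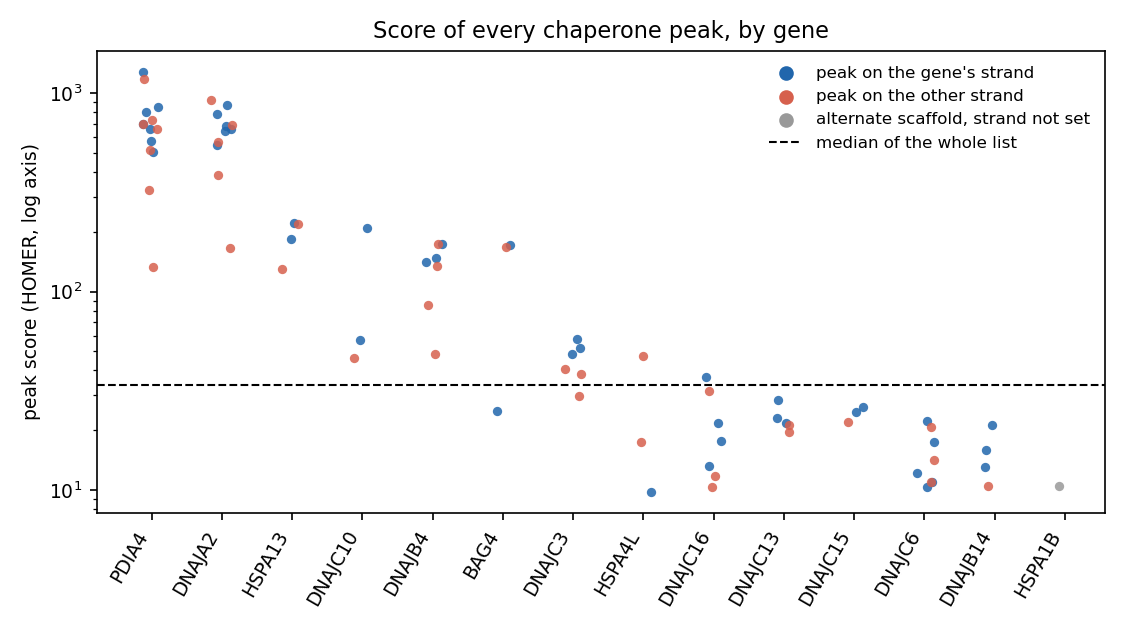
Score of every chaperone peak (vertical log axis) for the 14 listed genes along the horizontal axis, ordered by their highest peak, with color giving whether the peak lay on the strand of the gene. The library kit does not mark strand, so the color does not show the strand of the RNA. The dashed line is the median of the whole list, 34.0. PDIA4 and DNAJA2 stand at the left, with medians of 680.2 and 661.2, and HSPA1B at the right with 1 peak of 10.5, whose strand relative to its gene was not set.

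PDIA4, a disulfide isomerase of the endoplasmic reticulum also known as ERp72, ranked 28 of 3312 host genes by its highest peak. The gene lies on the minus strand at chr7:149003062-149028505 (hg38) and has 10 exons. Its 14 peaks, 7 on each strand, lay at or beside exons, and exons 7 and 8 were reached by no peak. The peak at the promoter scored 132.6, and the next one, at the 5′ end of intron 1, scored 571.9. Peaks around exons 2 and 3 scored 513.7, 661.7, 733.9 and 698.7. Those around exon 4 were lower, at 323.8 and 504.8. The pair around exon 5 reached 698.7 and 850.6, and the pair around exon 9 reached 661.2 and 801.4. The last exon, exon 10, held the highest pair, 1170.0 and 1279.6. The peak of 1279.6 lay at chr7:149003686-149004032 in coding sequence, ranked 83 in the whole list, and had a counting interval of 1250 to 1310 (exact Poisson, 95%, taking 1 score step of 0.245 as 1 read). No peak of PDIA4 was annotated in its 3′-UTR, which is 732 bp long, holds 1 ATTTA and was touched by peaks over 108 bp.

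DNAJA2, a class A DNAJ co-chaperone of cytosolic Hsp70, ranked 54. The gene lies on the minus strand at chr16:46955362-46973674 (hg38) and has 9 exons and 11 peaks. The promoter peak scored 164.7 and also lay over an exon of DNAJA2-DT, a divergent transcript, and the peak at the start of intron 1 scored 549.1. The pair around exon 3 scored 568.2 and 683.0, the pair around exon 5 scored 388.1 and 644.1, and the pair around exon 6 scored 691.8 and 782.6. A single peak at exon 8 scored 661.2, and exons 2, 4 and 7 were reached by no peak. The highest peak, 920.9, lay over the coding part of the last exon (chr16:46957023-46957369), and the peak of 874.9 lay in the 3′-UTR (chr16:46956355-46956701) and held the AU-rich stretch printed for this gene at its edge. In both genes the promoter peak was the lowest and a peak of the last exon was the highest.

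**Figure D3:**
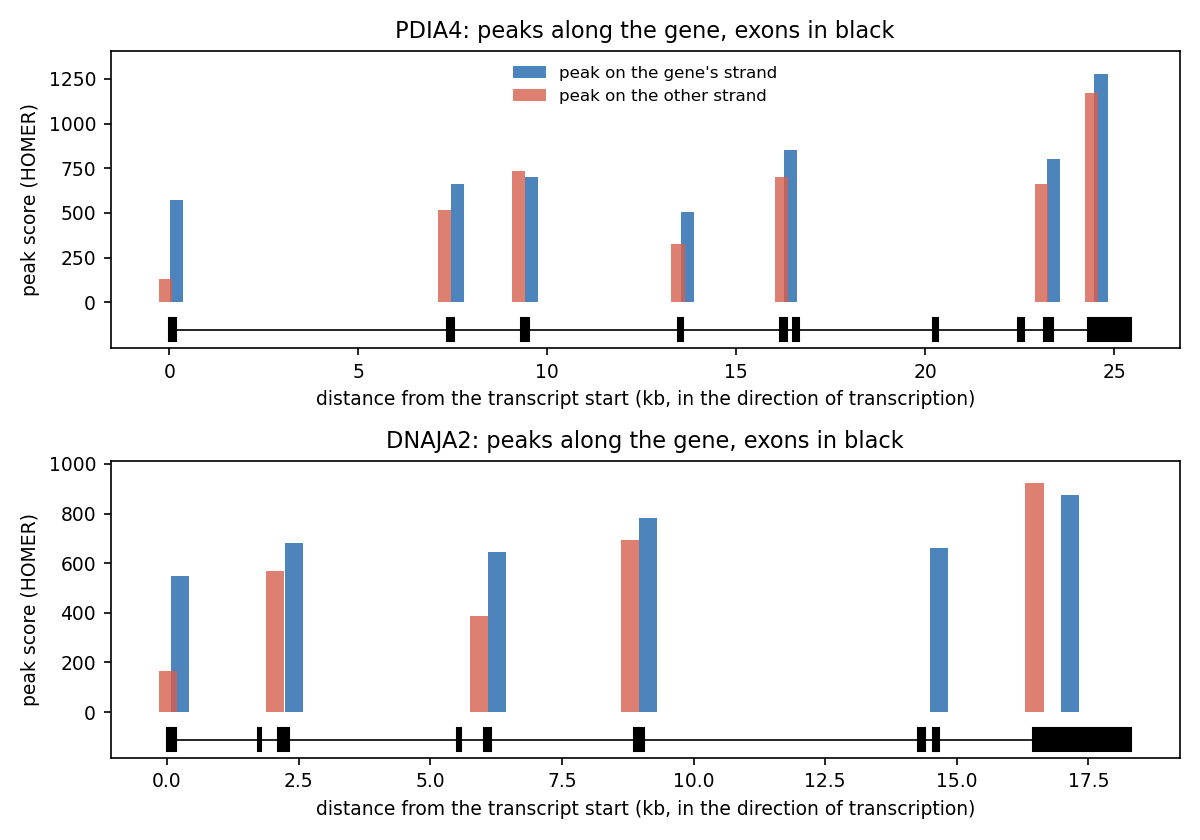
Peaks of PDIA4 and DNAJA2 along each gene, with distance from the transcript start in kb on the horizontal axis, peak score on the vertical axis, bars as wide as the peaks and exons as black boxes. Most peaks sit in pairs of opposite strand beside exons, and the highest bars, 1279.6 and 920.9, lie at the last exon. Because the library kit does not mark strand, these pairs do not show the strand of the RNA.

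Among the Hsp70 and Hsp110 proteins, HSPA13 (STCH), a short Hsp70 of the microsomes, had the highest scores. Its 4 peaks, at exons 2 and 5 of 5, scored 220.2, 218.3, 184.5 and 129.7. The 2 highest overlapped each other in the coding part of the last exon. HSPA4L, an Hsp110 nucleotide exchange factor, had 3 peaks of 9.79, 17.4 and 47.5, the highest at its last coding exon. The gap was wide, with every HSPA13 peak at least 129.7 and every HSPA4L peak at most 47.5.

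HSPA1B, one of the stress-inducible Hsp70 genes, had 1 peak with a score of 10.5. It lay not on a chromosome but on an alternate scaffold of chromosome 6, and its focus ratio, a fraction that describes how a peak's reads lie around its centre, was 0.956, the highest in the set (range 0.206 to 0.956). HSPA1B has a near-identical neighbor, HSPA1A. Of the 318 words of 30 bases in the peak window, 256 were found in HSPA1B transcripts and 0 in HSPA1A transcripts. How reads that match both the chromosome and the scaffold were treated is not stated, so the presence or absence of peaks for this gene pair is uncertain.

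The DNAJB genes differed in level. DNAJB4, a class B co-chaperone, had 7 peaks. Its promoter peak scored 48.2, lay outside the canonical transcript, and overlapped an exon of the neighboring FUBP1, which shares the locus. The 5′-UTR peak scored 85.6. The others, over its 3 exons, scored 147.1, 173.3, 173.5, 134.3 and 140.0, the last of them in the 3′-UTR. Within the transcript the values of DNAJB4 thus spanned 85.6 to 173.5. DNAJB14, a membrane-anchored DNAJ of the endoplasmic reticulum, had 4 peaks and a highest score of 21.3.

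The DNAJC class, whose members share little beyond the J domain, held most genes and low scores. The 32 peaks of its 6 genes had a median of 22.15 and a range of 10.3 to 208.5. DNAJC10 (ERdj5), a disulfide reductase of the endoplasmic reticulum, had peaks of 208.5 at exon 3, 57.0 and 46.0. The first of these was the highest of the class. DNAJC3 (p58IPK), an endoplasmic reticulum co-chaperone and inhibitor of the kinase PERK, had 6 peaks, all annotated in introns, of 29.6, 57.5, 38.2, 51.9, 40.6 and 48.5. DNAJC16 had 7 peaks, all intronic as well, of 31.6, 37.0, 21.8, 11.7, 13.2, 10.3 and 17.6. DNAJC13 (RME-8), an endosomal protein, had 5 peaks of 21.8, 28.4, 23.0, 19.6 and 21.3. No peak of these 3 genes exceeded 57.5. DNAJC6 (auxilin), which uncoats clathrin vesicles, had 8 peaks and a highest score of 22.3, and DNAJC15, a mitochondrial protein, had 3 peaks and a highest score of 26.2.

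BAG4 (SODD), a nucleotide exchange factor of Hsp70, had 3 peaks of 25.0, 166.7 and 171.1, the 2 highest in its last exon. The neighboring LSM1 hosted 2 further peaks, of 71.7 and 22.0, that overlapped exons of BAG4. Likewise, a FUBP1 peak of 18.1 overlapped an exon of DNAJB4. The library kit does not mark strand, so reads of overlapping genes cannot be told apart there.

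The gene name in the list's own gene column, which goes by the nearest transcript start, differed from the host gene for 24 of the 79 peaks, or 30.4%, against 43.3% of the list. That column named 97 peaks with 17 chaperone names, of which 55 peaks were named in both ways. It assigned 3 peaks of 590.7 to 663.4 to HSPB1, the gene of the small heat shock protein Hsp27, although they lay in YWHAG. It assigned 25 peaks of 99.4 to 438.5 in ADAM10 to HSP90AB4P, an Hsp90 pseudogene. It also named DNAJA1 (2 peaks in SMU1), DNAJB7 (3 in XPNPEP3) and DNAJC19 (1 in FXR1), and it never named BAG4 or DNAJC15. All 8 peaks hosted by DNAJC6 were given to LEPROT in that column. The presence of Hsp27 or Hsp90 names in such a list thus depended on how a peak was given its gene.

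By the deposited annotation, chaperone peaks were found mostly in introns and exons and seldom in 3′-UTRs. Introns held 46 of 79 peaks, or 58.2% (47.2 to 68.5), against 61.9% of the list. Exons outside UTRs held 20, or 25.3% (17.0 to 35.9), against 12.6%. The 3′-UTR held 7, or 8.86% (4.36 to 17.2), against 14.6%. These 7 lay in 5 genes, namely 2 each in DNAJC15 and DNAJC6 and 1 each in DNAJA2, DNAJB4 and HSPA1B. The median score was 172.2 for exonic, 43.3 for intronic and 24.7 for 3′-UTR peaks, beside 44.0, 28.6 and 65.4 in the whole list. These medians pool genes of very different level: 5 of the 7 3′-UTR peaks lay in DNAJC15, DNAJC6 and HSPA1B, whose scores were low, whereas the 3′-UTR peak of DNAJA2 (874.9) was above its exon 8 peak (661.2). Peaks of 1 gene share a transcript and are not independent of each other.

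The intronic label described peaks at exon edges. For the 47 peaks whose centre fell in an intron of the canonical transcript, the nearest exon was a median of 75 bp and at most 195 bp away, all within 1 peak length of 347 bp, against 96.4% of the list's 8828 intronic peaks. When each peak was moved back by 173 bp against its own strand, coding exons held 49 of 78 peaks, or 62.8% (51.7 to 72.7), against 53.1% of the list, and introns held 19.2% against 20.2%. When it was moved forward by 173 bp, introns held 79.5% against 73.8%. The 3′-UTR share was 7.69% at the centre and 11.5% after the move back, against 17.1% and 18.8% of the list.

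**Figure D4:**
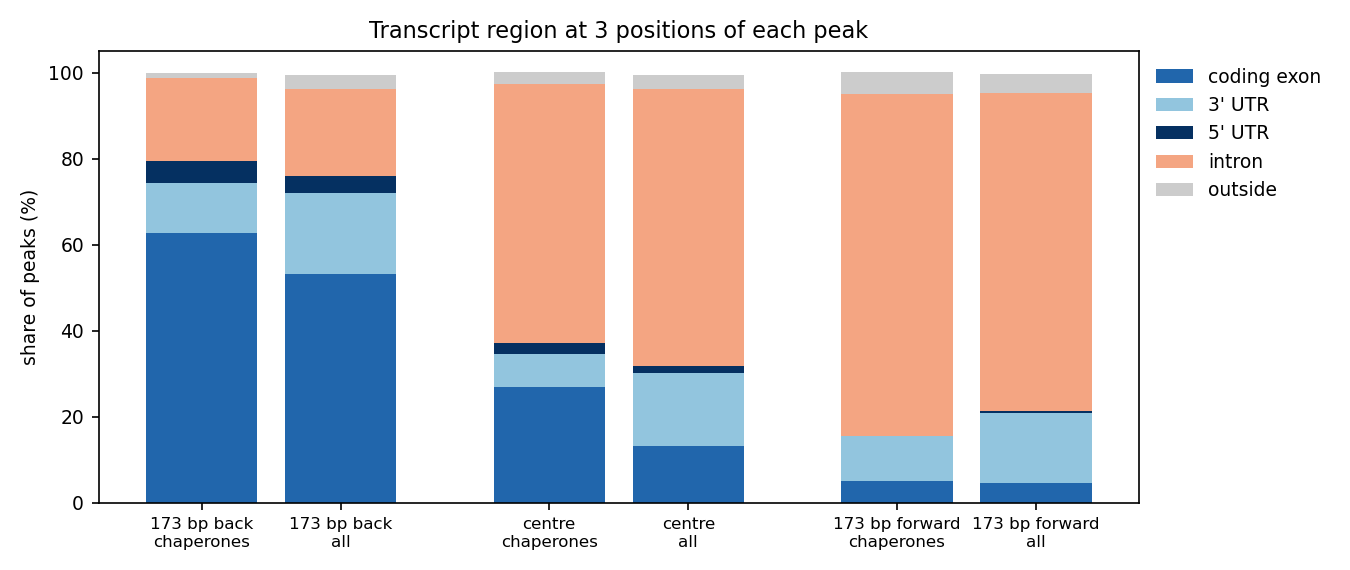
Share of peaks in each region of the canonical transcript (percent, vertical axis) at the peak centre and 173 bp back or forward along the strand of the peak, for chaperone peaks (n = 78) and all placed peaks (n = 13704). At the position 173 bp back, coding exons hold 62.8% of chaperone peaks and 53.1% of all peaks.

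Many peaks had a neighbor on the opposite strand. The library kit does not mark strand, so the strand of a peak does not show which strand its RNA came from. Peaks were found on both strands in 13 of the 14 genes, and 43 of 78 peaks, or 55.1%, had the strand of their gene, against 53.2% of the list. Of 38 placed minus-strand peaks, 27 (71.1%) had a plus-strand peak of the same gene within 1000 bp, against 50.2% of the list, and DNAJC10, DNAJC13 and HSPA4L had no such pair. The plus-strand peak lay to its right on the chromosome in 27 of 27 cases, against 92.1% of 3414 in the list. The offset between the paired peaks had a median of 340 bp and a range of 113 to 668 bp. This arrangement held on genes of either strand, and merging overlapping peaks left 59 loci, of which 20 held both strands. Shares over the whole list are not given for the 13 genes or the 20 loci with both strands, so they cannot be called particular to chaperones.

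The highest peak lay at the last exon in 7 of the 13 chaperone genes with a placed peak, or 53.8% (29.1 to 76.8). Over all 3264 genes with a placed peak, the share was 43.3%. The 7 chaperone genes were PDIA4, DNAJA2, HSPA13, BAG4, DNAJC15, DNAJC6 and HSPA4L. In DNAJC10, DNAJC3, DNAJC16, DNAJC13, DNAJB4 and DNAJB14 the highest peak lay further upstream.

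AU-rich sequence inside the peak windows was about as frequent as in the list. ATTTA, searched on the strand of the gene in the 347 bp window, was present in 39 of 78 peaks, or 50.0%, against 50.6%. The longer TATTTAT, which contains ATTTA, was present in 8.97% against 9.11%, and the U-rich TTTTT in 66.7% against 68.5%. These shares differed between the members. ATTTA was in 2 of the 14 windows of PDIA4, whose mean GC content was 56.3%, in 3 of 11 of DNAJA2 (46.2% GC), in 2 of 4 of HSPA13 (39.8% GC), and in 21 of 32 of the DNAJC genes (37.8% GC). Without PDIA4 and DNAJA2 the share was 64.2% (34 of 53, 37.6% GC). PDIA4 and DNAJA2, with the highest scores, thus had the lowest shares with ATTTA and the highest GC content of these groups, and the part of GC content in these shares was not tested.

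Listed chaperone genes had longer 3′-UTRs than unlisted ones. The median length in the canonical transcript was 2827 bp in the 14 genes with a peak and 917.5 bp in the 82 without, beside 2502 bp and 864 bp for all coding genes with and without a peak. Their 3′-UTRs held a median of 3.30 ATTTA per kb against 2.17 per kb, beside 2.68 and 1.24 for all coding genes. Whole transcripts differed too, at 5776 bp against 2307 bp, beside 4768 bp and 2626 bp for all coding genes with and without a peak. ATTTA was missing from the 3′-UTR of 0 of the 14 listed and 23 of the 82 unlisted genes, beside 6.50% of all coding genes with a peak and 36.7% of those without, so the same direction was seen outside the chaperones. Length and peak number were not separated from expression level, which the list does not hold.

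**Figure D5:**
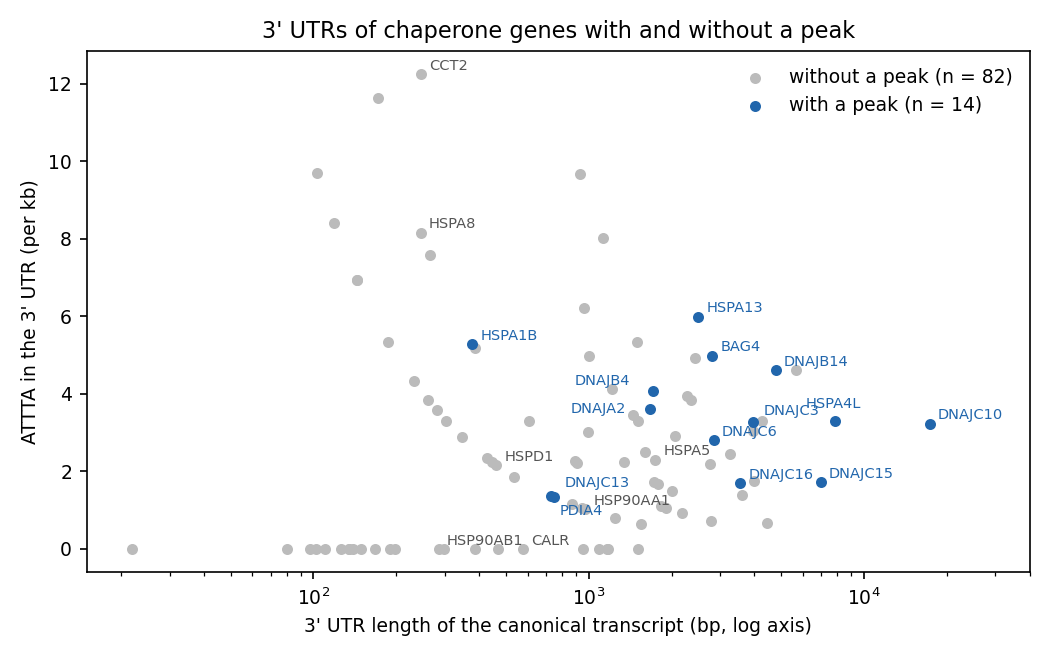
Length of the 3′-UTR (bp, log axis) against the number of ATTTA per kb in it, for 14 chaperone genes with a peak and 82 without. HSP90AB1 and CALR lie at 0 ATTTA, and DNAJC10 has the longest 3′-UTR, 17332 bp.

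The individual genes overlapped in these features. The 3′-UTR of HSP90AB1 is 285 bp long and holds 0 ATTTA, that of CALR 576 bp with 0, that of HSP90AA1 970 bp with 1, and that of HSPA8 245 bp with 2. By contrast, BAG2 has 5643 bp with 26 ATTTA and HSPH1 has 2345 bp with 9, and neither had a peak. In all, 7 of the 82 unlisted genes had a 3′-UTR longer than the median of the listed ones.

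Few of the AU-rich pentamers of these 3′-UTRs lay inside peaks. The 13 placed genes have 57472 bp of 3′-UTR with 187 ATTTA, of which peaks covered 3.55% of the length and 5 pentamers (2.67%), against 7.64% and 6.55% over all 3064 coding genes with a placed peak. In both, the share of pentamers lay slightly below the share of length. Those were 2 of 6 in DNAJA2, 2 of 12 in DNAJC15 and 1 of 14 in BAG4. The other 10 genes had none inside a peak, among them HSPA13 with 15 in its 3′-UTR and DNAJC10 with 56. When the windows were moved back by 173 bp, 4 pentamers were inside.

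Genes that work with these chaperones were looked up from a list of 37 regulators, co-chaperones and folding enzymes. Of these, 8 had a peak (21.6%), beside 15.4% of all protein-coding genes. With GRPEL2 counted by overlap the share was 24.3%, but no gene was counted by overlap in the 15.4%. ERO1A, which reoxidizes protein disulfide isomerase, had the highest scores, with 8 peaks from 142.4 to 497.3 and rank 130 of the 3312 genes. FKBP5, an Hsp90 co-chaperone of steroid receptors, had 12 peaks with a highest score of 122.4, and ST13 (Hip), an Hsp70 co-chaperone, had 3 with a highest score of 89.3. UGGT1, the folding sensor of the calnexin cycle, had 5 peaks up to 56.5, and HSF2, a heat shock transcription factor, had 7 up to 48.0. The rest, ERO1B, CLPB and UGGT2, had 1 or 2 peaks with a highest score of 15.2, 12.2 and 9.54. HSF1, the main regulator of the heat shock response, was not listed, nor were the Hsp90 co-chaperones STIP1, AHSA1, CDC37, FKBP4 and PTGES3, the isomerase P4HB, or TCP1 and the prefoldin subunits. GRPEL2, a nucleotide exchange factor of mitochondrial Hsp70, was counted as unlisted because its transcript was not paired with a symbol, but 3 peaks of 69.5 to 304.9 overlapped it.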

How the data were processed

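RIP-seq was measured in 2 HuR RIP and 2 IgG RIP samples, grouped by the antibody in the labels. Per the study's methods and the labels, the authors aligned reads with STAR to hg38, called peaks with HOMER, and kept those of altered abundance. The threshold, versions and pooling are not given in the sources used here. The methods name ANNOVAR, whereas the header holds a HOMER annotation command. The deposited peak score is the caller's value for each peak, the focus ratio is a fraction per the file headers, and the deposited distance to the nearest transcript start was not analysed. The list holds no counts for single samples, so no count test was possible and depth is unknown.

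Host genes came from RefSeq (matched for 13835 of the 13929 peaks with a named transcript). Regions came from GENCODE 44 canonical transcripts on hg38, with 1-based coordinates (13704 peaks placed, and 78 of 79 chaperone peaks). All 11121 scores under 100 lay within 0.055 of a multiple of 0.245 (45% would by chance). The authors do not state that 1 step is 1 read. Poisson and Wilson 95% intervals cover counting error only. Under 1 step per read, the lowest chaperone score stands for 40 reads.

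Every peak is given for the gene with the highest peak of each family and for the 10 genes with the highest peaks. Other genes are given by number and highest score, and 1 gene of the planned list of partner genes is not reported here. The members and lists were chosen with earlier results of these data known. Other score minimums, gene sources, merging, positions, motifs and windows were tried. Python 3.11.15, numpy 2.4.6, scipy 1.17.1, pandas 2.3.3 and matplotlib 3.10.9 were used, and placement and motif functions were tested on simulated data.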

Additional observations from a re-analysis of the deposited data

How the results depend on the processing

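Of 20 alternatives to 6 results, 11 stayed within 1.5 times the reported count or within the 95% interval of the reported share or median score (31.6 to 166.7 for the latter). These intervals treat peaks as independent, although peaks of 1 gene share a transcript, so they serve only as a rough yardstick. With only scores at or above the list median, 9 of the 14 genes were left, the median score was 219.2 and the 3′-UTR share 4.17%, since this setting removes low peaks. The intron share of 58.2% became 19.2% with peaks moved back by 173 bp and 79.5% with peaks moved forward, so it depends on how peaks were placed along their strand, a setting not given in the sources used here. The share with ATTTA, 50.0%, was 8.97% for TATTTAT and 66.7% for TTTTT, which are different motifs. Leaving out PDIA4 and DNAJA2, a setting chosen after seeing the data, gave a median score of 25.6 and an ATTTA share of 64.2%. The other settings gave 13 and 17 genes, 59, 78 and 97 peaks, a median score of 38.2, intron shares of 53.7% to 64.4% and a 3′-UTR share of 11.5%. No paired analysis was possible because peak values are not split by sample, and leaving out a replicate could not be run for the same reason. A gene without a peak may be unbound, weakly expressed or below the threshold of the list, and these cannot be told apart here.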

Other observations

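Peaks are numbered within each chromosome, and the numbers followed the score closely (Spearman's rho across listed peaks -0.922 on chromosome 7, -0.928 on chromosome 16 and -0.909 on chromosome 21, as a description). Not every number was listed. Of the first 100 numbers, 56 were listed on chromosome 7, of which 11 were PDIA4 peaks. On chromosome 16, 49 were listed, of which 10 were DNAJA2 peaks. On chromosome 21, 16 were listed, and 4 of them were all the peaks of HSPA13.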
